A study of Oryctolagus cuniculus with 12 samples.

Results

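The collagen genes of the rabbit cornea were taken as every gene in the deposited expression table whose name is COL, a number, A and a number, which gave 42 of 29076 genes. They comprised 11 fibrillar collagens, 6 basement membrane collagens, 9 FACIT collagens (fibril-associated collagens with interrupted triple helices) and 16 others. The study sequenced RNA from rabbit corneas in 12 libraries, 3 each labelled control, blue_light, GL and RL. All 4 groups were of rabbits aged 6 months and fed a normal diet, no strain or genetic change being labelled, and the labels attach an exposure to light lasting 6 weeks to every library, controls included. GL and RL are not spelled out in the labels, and neither a wavelength nor an intensity is given in the sources used here. Nothing in the labels says whether the 3 libraries of a group came from separate animals, so a p-value here reflects only how far these samples differ, and that spread may be technical.

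Collagens are triple helices of 3 chains, which can be alike or different, and each kind of chain is encoded by its own gene. The transparent corneal stroma is built of thin, evenly spaced fibrils of type I collagen with some type V collagen, which limits fibril diameter, and FACIT collagens sit on the fibril surface. Type IV collagen forms the sheets of the epithelial basement membrane and of Descemet's membrane, in which type VIII collagen from the endothelium makes a hexagonal lattice. Type VII collagen anchors the epithelial basement membrane to the stroma, and type XVII collagen is a transmembrane protein of the epithelial hemidesmosome.

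Total estimated counts ranged from 40.9 M to 64.7 M per library, which corresponds to about 10.8 M to 17.1 M fragments. They were 44.4 M to 56.9 M in control, 40.9 M to 58.8 M in blue_light, 61.6 M to 64.7 M in GL and 45.9 M to 62.4 M in RL. Every GL library was thus deeper than any control. Keratocyte and corneal epithelial markers were abundant in all 12 libraries. KERA, a keratan sulfate proteoglycan of keratocytes, lay between 1799 and 3406 FPKM (fragments per kilobase of gene, scaled to library size). The stroma share, the summed FPKM of KERA, LUM, DCN, OGN and PRELP as a percentage of that sum plus KRT12, KRT3, KRT5, AQP5 and CDH1, ranged from 35.2% to 59.3%. It was 44.96% to 52.3% in the controls, 50.8% to 59.3% in blue_light, 41.0% to 42.7% in GL and 35.2% to 55.1% in RL. All 3 blue_light libraries, control replicate 1 and RL replicate 1 also had 2389 to 2563 genes at counts of 1 to 20, against 767 to 1461 in the other 7. Photoreceptor transcripts were raised in blue_light replicate 1, control replicate 2 and GL replicate 3, where the summed FPKM of the retina list was 94.4, 55.3 and 259, against 4.97 to 20.1 elsewhere.

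Collagen transcripts were dominated by a few stromal chains. They made up 0.952% to 2.65% of the summed FPKM and 3.10% to 7.04% of the counts of a library. COL1A2 and COL1A1, the chains of type I collagen, led with means of 3196 and 1991 FPKM over the 12 libraries. COL12A1, a FACIT collagen, followed at 526 FPKM and COL5A2, a chain of type V collagen, at 505 FPKM. Of the 42 genes, 15 averaged at least 100 FPKM, 14 averaged between 1 and 100 FPKM, and 13 averaged less than 1 FPKM. All 11 fibrillar and all 6 basement membrane collagens averaged at least 1 FPKM, whereas 4 of 9 FACIT and 8 of 16 other collagens did. A low-count filter kept 40 of the 42 for testing; COL21A1 and COL13A1 were not tested, and COL13A1, a transmembrane collagen, had a count of 0 in all 12 libraries.

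**Figure D1:**
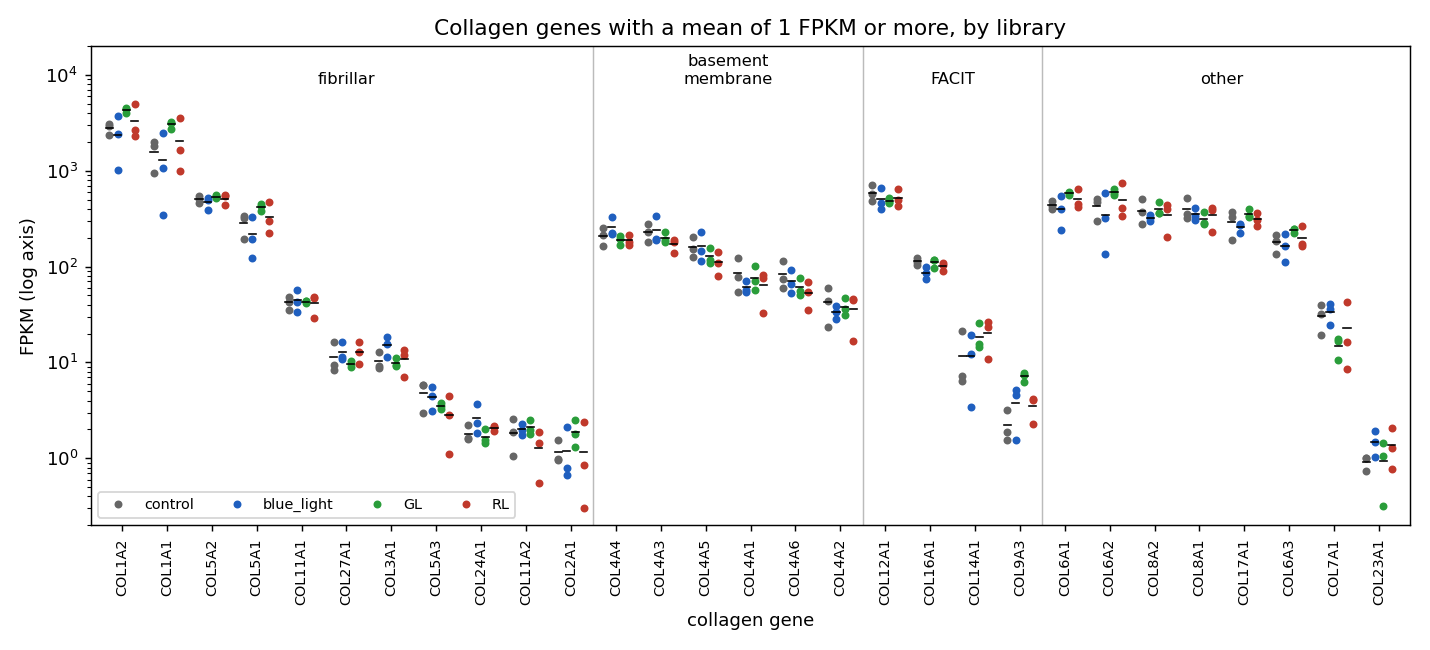
FPKM on a log axis of the 29 collagen genes that averaged at least 1 FPKM, by class; each point is 1 library, coloured by group, and each short bar is a group mean of 3 libraries. The chains of type I collagen lie at the top, between 349 and 5007 FPKM, and their blue_light and RL libraries are spread far apart.

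No collagen gene passed the threshold of an adjusted p of 0.05 in any light group against control with edgeR's quasi-likelihood test, adjusted over 18171 genes. For blue_light minus control 0 of 40 were called (0.0165% of all genes tested), for GL minus control 0 of 40 (0.0550%) and for RL minus control 0 of 40 (0.0110%). At an unadjusted p below 0.05 the collagen counts were 1, 3 and 0 of 40, against 3.26%, 8.10% and 4.74% of all genes. The count of 3 for GL was 1 on leaving out any 1 of the GL libraries and 5 without blue_light replicate 1. Fitting only GL and control gave 8 of 34, with 1971 over all genes. The number of low-count genes as a covariate gave 6 of 40, with 1471 over all genes. With replicate numbers as a block it was 5 of 40, with 1636 over all genes. DESeq2, run as an alternative, called 0, 1 and 0 collagen genes in the same comparisons, the 1 being COL9A3. Among the 29 collagen genes with a mean of at least 1 FPKM, the median log2 change was -0.12 for blue_light, 0.08 for GL and 0.09 for RL, each relative to control. The corresponding medians over all tested genes with a mean of at least 1 FPKM were -0.0009, 0.003 and 0.02. These comparisons share the 3 control libraries. In bulk tissue, fewer cells of a type and less RNA per cell cannot be told apart.

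The groups overlapped for most collagen genes. On counts scaled to library size (CPM), 7 of 40 lay higher in every GL library than in any control, where 9.21% of all tested genes did, and 2 lay lower, where 9.25% did. The 7 were COL1A1, COL1A2, COL5A1, COL6A1, COL6A2, COL6A3 and COL9A3, and the 2 were COL7A1 and COL9A2. The GL and control libraries also did not overlap in total count or in stroma share. For blue_light against control COL23A1 and COL9A1 were higher without overlap, against 4.91% of all genes, and COL16A1 was lower, against 4.09%. COL9A1 was near the floor of detection, at 0.0238 to 0.108 FPKM in blue_light and 0 in control. For RL against control 1 of 40 was higher without overlap, against 3.66% of all genes, and 0 were lower, against 4.66%. The 1 was COL28A1, a collagen with von Willebrand A domains. It too was near the floor, at 0.0527 to 0.230 FPKM in RL and 0 to 0.0494 in control.

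**Figure D2:**
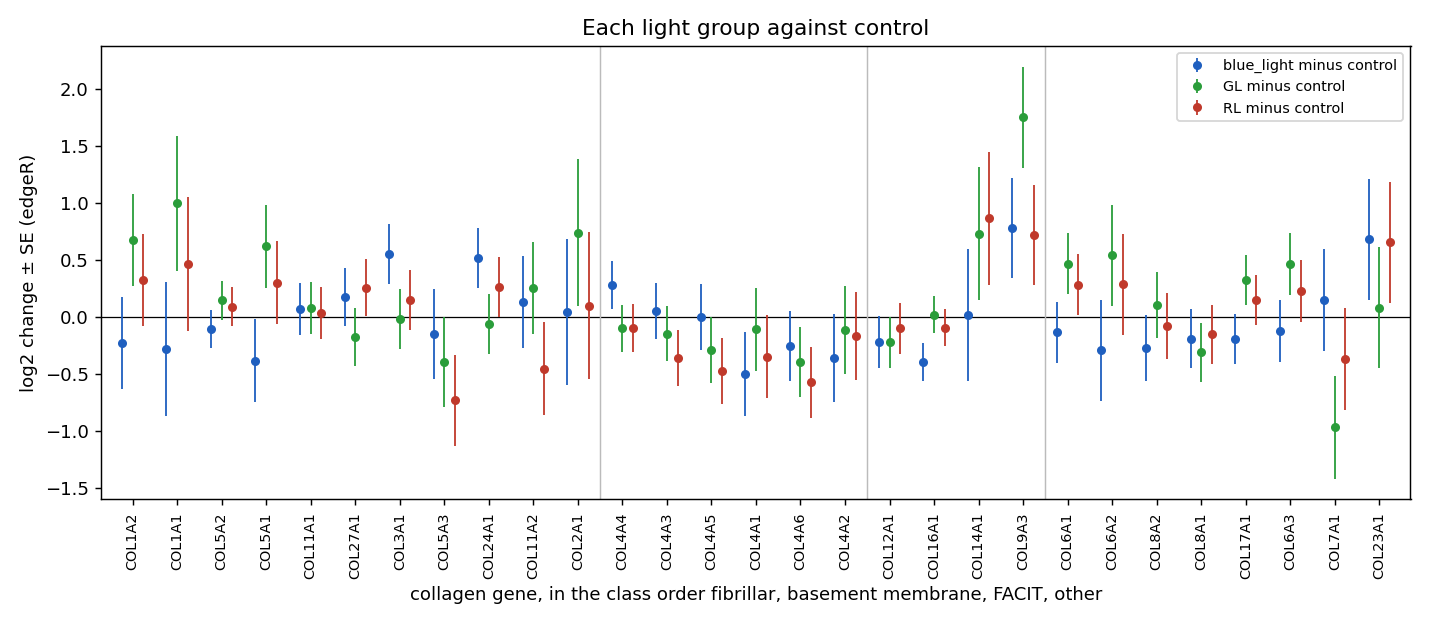
Log2 change with its standard error (edgeR) of 29 collagen genes in each light group relative to control, from all 12 libraries; vertical lines separate fibrillar, basement membrane, FACIT and other collagens. COL9A3 in GL lies highest at 1.75 and COL7A1 in GL lowest at -0.97, and none of the changes shown passed the adjusted threshold.

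COL1A1, on chromosome 19 from 37474894 to 37490691, encodes the alpha 1 chain of type I collagen. Its FPKM in replicates 1, 2 and 3 was 938, 1811 and 1979 in control, 349, 1067 and 2454 in blue_light, 2714, 3235 and 3170 in GL, and 991, 3537 and 1653 in RL. The GL libraries lay together above every control, whereas blue_light held 1 library below and 1 above all controls, and RL overlapped the controls with 1 library above them. The group means were 1576 ± 559 (SD, n = 3) in control, 1290 ± 1070 (SD, n = 3) in blue_light, 3040 ± 284 (SD, n = 3) in GL and 2060 ± 1321 (SD, n = 3) in RL. For GL minus control the log2 change was 0.996 ± 0.594 (SE), with an edgeR adjusted p of 0.638, and with the stroma score as a covariate it was 0.43. The changes of -0.28 in blue_light and 0.47 in RL turned their direction when blue_light replicate 1 (0.17) or RL replicate 2 (-0.19) was left out. They also turned with the stroma score as a covariate, to 0.19 and -0.32.

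COL1A2, on chromosome 10 from 34497959 to 34533742, encodes the other chain of type I collagen and exceeded COL1A1 in FPKM in all 12 libraries. It stood at 2348, 3066 and 2959 FPKM in control, 1010, 2385 and 3731 in blue_light, 4022, 4391 and 4490 in GL, and 2275, 5007 and 2669 in RL. Again the 3 GL libraries exceeded all controls, and RL replicate 2 was the highest of the 12. The log2 change for GL minus control was 0.67 ± 0.40 (SE), with an edgeR adjusted p of 0.638, and 0.33 with the stroma score as a covariate. In blue_light it was -0.23 and without blue_light replicate 1 it was 0.14; in RL it was 0.32 and without RL replicate 2 it was -0.12.

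The ratio of the FPKM of COL1A1 to that of COL1A2 was not constant over the libraries. It was 0.399, 0.591 and 0.669 in control, 0.345, 0.448 and 0.658 in blue_light, 0.675, 0.737 and 0.706 in GL, and 0.436, 0.706 and 0.619 in RL. The ratio was highest in GL replicate 2 and lowest in blue_light replicate 1, the library with the least type I collagen. COL1A1 varied 10.1-fold between the lowest and the highest library and COL1A2 4.96-fold.

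A list of sclera and tendon markers, TNMD, CILP, CHAD, OMD, MKX and THBS4 (6 of 8 listed genes were tested), also differed between libraries. Its summed FPKM was lowest in blue_light replicate 1 (98.9) and highest in RL replicate 2 (328), and was 264 to 303 in GL against 156 to 228 in control. Its mean log2 CPM gave another order, with 3.65 in RL replicate 3, 3.77 in blue_light replicate 1 and 3.93 in RL replicate 2, against 5.04 in blue_light replicate 3. The largest values of the list were those of THBS4, between 27.0 and 230 FPKM, and CHAD lay between 10.8 and 73.8. TNMD, which defines tendon cells, lay between 3.01 and 20.7 FPKM, and CILP between 0 and 0.371. The part of these cells in the type I collagen values was not tested.

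Type V collagen, which nucleates the stromal fibrils, showed chains that behaved differently. COL5A2 varied least of all collagen genes above 1 FPKM, 1.44-fold, from 387 to 558 FPKM. COL5A1 varied 3.84-fold: 193, 318 and 336 FPKM in control, 123, 196 and 330 in blue_light, 432, 376 and 452 in GL, and 222, 473 and 297 in RL. The GL libraries lay above all controls, with a log2 change of 0.62 ± 0.36 (SE) and an edgeR adjusted p of 0.636. The change was 0.29 with the stroma score and 0.40 with the number of low-count genes as a covariate, and 0.41 without control replicate 1. The ratio of COL5A1 to COL5A2 accordingly ran from 0.318 in blue_light replicate 1 to 0.870 in RL replicate 2. COL5A1 values are uncertain because a second entry of the table, annotated as a partial copy of this chain, could share its reads.

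The remaining fibrillar collagens were much lower than types I and V. COL11A1, a close relative of COL5A1, ranged from 29.3 to 57.0 FPKM, and COL27A1 from 8.32 to 16.4. COL3A1, the chain of type III collagen of extensible tissues and of wounds, stayed between 7.02 and 18.6 FPKM. Its ratio to COL1A2 was between 0.00207 and 0.0184. COL3A1 and COL5A2 lie tail to tail on chromosome 7, 16.6 kb apart, the first from 129298041 to 129341606 and the second from 129358210 to 129503927. COL5A3, COL24A1 and COL11A2 averaged 3.88, 2.04 and 1.81 FPKM, and COL2A1, the chain of type II collagen of cartilage and vitreous, averaged 1.35. COL2A1 was lowest at 0.300 in RL replicate 1 and highest at 2.53 in GL replicate 3. The summed FPKM of the retina list was 259 in GL replicate 3, the highest of the libraries. COL2A1 was 0.783 in blue_light replicate 1 (retina sum 94.4) and 1.56 in control replicate 2 (55.3). It was 2.37 in RL replicate 2 (20.1) and 2.14 in blue_light replicate 3 (18.4). The part of retinal tissue in the COL2A1 values was not tested.

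Type VI collagen, whose chains assemble into beaded microfibrils between the stromal fibrils, was led by COL6A1 and COL6A2, which averaged 478 and 467 FPKM. COL6A1 stood at 394, 430 and 481 FPKM in control, 238, 402 and 544 in blue_light, 587, 559 and 595 in GL, and 449, 640 and 422 in RL. COL6A2, on chromosome 14 from 163843050 to 163861095, stood at 302, 472 and 506 in control, 134, 321 and 585 in blue_light, 588, 562 and 650 in GL, and 334, 743 and 406 in RL. Both lay higher in every GL library than in any control, and both had their lowest value in blue_light replicate 1 and their highest in RL replicate 2. COL6A3 did likewise for GL against control, at 226 to 246 FPKM against 136 to 214. The log2 changes for GL minus control were 0.47 ± 0.27 (SE) for COL6A1, 0.54 ± 0.44 for COL6A2 and 0.47 ± 0.27 for COL6A3, with edgeR adjusted p of 0.631, 0.758 and 0.635. With the stroma score as a covariate they were 0.31, 0.17 and 0.27, and without control replicate 1 those of COL6A2 and COL6A3 were 0.34 and 0.30. COL6A3 and COL6A1 kept a ratio between 0.346 and 0.466. COL6A1 to COL6A2 ranged more widely, from 0.862 to 1.77. COL6A5 and COL6A6, the other type VI chains in the table, never exceeded 0.142 FPKM.

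**Figure D3:**
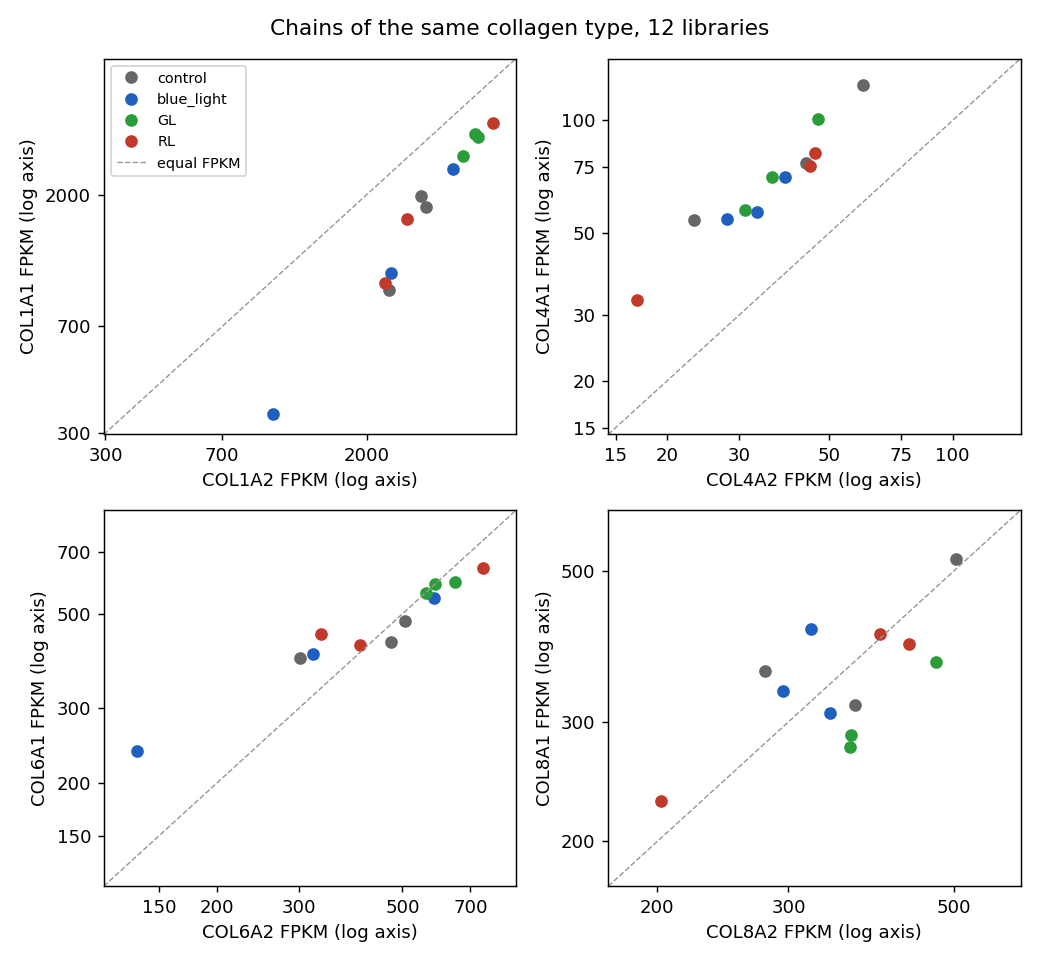
FPKM of pairs of chains of the same collagen type on log axes, 1 point per library, coloured by group; the dashed line marks equal FPKM. COL4A1 and COL4A2 keep a ratio between 1.69 and 2.32 although each varies more than 3.5-fold, COL1A1 drops away from COL1A2 at the low end, and the 3 GL libraries lie below the other 9 in the ratio of COL8A1 to COL8A2.

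All 6 chains of type IV collagen were expressed, with the alpha 3 and alpha 4 chains highest. COL4A4 and COL4A3 averaged 211 and 210 FPKM and COL4A5 140 FPKM, the chains that form the alpha 3-4-5 network of Descemet's membrane and the epithelial basement membrane. COL4A1 averaged 71.4 FPKM, COL4A6 66.9 and COL4A2 37.5. Each pair lies next to each other in the genome on opposite strands with the gene starts facing. COL4A1 ends at 111654797 and COL4A2 begins at 111654828 on chromosome 8, leaving 30 bases between them. COL4A6 and COL4A5 on chromosome X are 1367 bases apart, and COL4A4 and COL4A3 on chromosome 7 are 77.9 kb apart.

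The paired chains moved together over the libraries, but this was not particular to neighbouring genes. COL4A3 and COL4A5, on different chromosomes, were both highest in blue_light replicate 1 (335 and 228 FPKM) and lowest in RL replicate 1 (140 and 79.8 FPKM). COL4A1 stood at 54.1, 124 and 77.0 FPKM in control, 70.7, 54.6 and 56.7 in blue_light, 70.7, 57.5 and 101 in GL, and 33.1, 82.0 and 75.5 in RL. COL4A2 stood at 23.3, 60.3 and 43.9, then 39.0, 28.0 and 33.3, then 36.1, 31.1 and 46.8, then 16.9, 46.1 and 44.8 in the same order. Control replicate 2 was highest and RL replicate 1 lowest for both, and the groups overlapped. Their ratio stayed between 1.69 and 2.32 while the genes varied 3.76-fold and 3.56-fold. COL4A3 to COL4A4 stayed between 0.824 and 1.12, and COL4A5 to COL4A6 between 1.70 and 2.52. None of the 6 chains reached an unadjusted p below 0.05 in edgeR for any light group against control.

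Lens and endothelial markers also differed between these libraries. The summed FPKM of 15 tested lens genes was 20384 in blue_light replicate 1, 10295 in control replicate 2 and 906 to 7210 elsewhere. COL4A5 was highest in those 2 libraries, at 228 and 205 FPKM against 79.8 to 156 in the others. COL4A3 and COL4A4 were also highest in them, at 335 and 276 FPKM and at 326 and 254 FPKM. The summed FPKM of 8 corneal endothelial markers was lowest in RL replicate 1 (353), where COL4A1, COL4A2, COL4A3, COL4A5 and COL4A6 were lowest, and highest in control replicate 2 (604). Of these, SLC4A11, an endothelial membrane transporter, ranged from 85.9 to 211 FPKM. The part of lens capsule or of endothelial cells in the type IV values was not tested.

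Type VIII collagen ranged with type IV. COL8A1, on chromosome 14 from 120913933 to 121077408, stood at 356, 521 and 318 FPKM in control, 411, 334 and 309 in blue_light, 276, 287 and 368 in GL, and 229, 390 and 403 in RL. COL8A2 stood at 279, 503 and 368, then 322, 295 and 341, then 362, 364 and 473, then 202, 436 and 398 in that order. Control replicate 2 was again highest and RL replicate 1 lowest for both chains. The ratio of COL8A1 to COL8A2 was 0.761, 0.787 and 0.778 in GL, below all the other 9 libraries, the lowest of which was control replicate 3 at 0.863. The highest ratios, 1.28 each, were in control replicate 1 and blue_light replicate 1. No test was made of this ratio, and neither gene reached an unadjusted p below 0.05 in edgeR for GL minus control.

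Among the FACIT collagens, 2 were abundant and varied by 1.80-fold (COL12A1) and 1.68-fold (COL16A1) over the libraries. COL12A1, on chromosome 12 from 61958742 to 62087011, encodes type XII collagen of the fibril surface. It ranged from 394 to 709 FPKM, with overlap between all groups. COL16A1 stood at 124, 103 and 112 FPKM in control, 74.0, 85.01 and 98.8 in blue_light, 118, 96.9 and 117 in GL, and 110, 104 and 90.1 in RL. All 3 blue_light libraries lay below the 3 controls. The log2 change was -0.40 ± 0.16 (SE), with an unadjusted p of 0.0307 and an adjusted p of 1 in edgeR. COL14A1, another fibril-surface collagen, varied 7.79-fold, from 3.43 FPKM in blue_light replicate 1 to 26.7 in RL replicate 1.

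COL9A3, a chain of type IX collagen that coats the fibrils of cartilage and vitreous, showed the smallest p of the collagen genes against control. It stood at 3.19, 1.89 and 1.56 FPKM in control, 1.57, 4.59 and 5.17 in blue_light, 7.43, 6.31 and 7.83 in GL, and 4.03, 2.30 and 4.11 in RL. Every GL library lay above each of the other 9. The log2 change for GL minus control was 1.75 ± 0.45 (SE), with an unadjusted p of 0.00188 and an adjusted p of 0.413 in edgeR. DESeq2 gave 1.75 and an adjusted p of 0.0208, and over all alternatives the adjusted p ranged from 0.0208 to 0.973. The changes in blue_light and RL were 0.78 ± 0.44 and 0.72 ± 0.44 (SE), neither with an unadjusted p below 0.05. In the test of any difference among the 4 groups COL9A3 had an unadjusted p of 0.0113 and an adjusted p of 0.564, and COL10A1 an unadjusted p of 0.0382 and an adjusted p of 0.631. That test called 0 of 40 collagen genes (0.0605% of all genes), and 2 of 40 were below an unadjusted p of 0.05 against 7.79% of all genes; DESeq2 called 0.

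The other type IX chains did not share the pattern of COL9A3. COL9A2 was 0.602 to 1.11 FPKM in control and 0 to 0.408 in GL, and COL9A1 was listed at 0 in 8 of 12 libraries, among them all control and all GL libraries. Markers of cartilage ranged from 4.98 to 8.03 summed FPKM in control and from 7.07 to 7.74 in GL, and the retina list was highest in GL replicate 3. Without the 3 libraries with raised photoreceptor transcripts the log2 change of COL9A3 in GL was 1.59.

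The collagens of the epithelial attachment stood at different levels. COL17A1, the hemidesmosomal collagen, on chromosome 18 from 51947095 to 51995845, was abundant at 326, 191 and 367 FPKM in control, 227, 275 and 270 in blue_light, 339, 394 and 330 in GL, and 363, 306 and 265 in RL. COL7A1, the anchoring fibril collagen, on chromosome 9 from 16264230 to 16293878, stood at 39.7, 19.4 and 32.0 in control, 40.9, 36.0 and 24.3 in blue_light, 17.5, 16.6 and 10.6 in GL, and 42.9, 8.59 and 16.4 in RL. The GL libraries lay below every control and every blue_light library, and RL spanned the whole range. For GL minus control the log2 change of COL7A1 was -0.97 ± 0.45 (SE), with an unadjusted p of 0.0527 and an adjusted p of 0.610 in edgeR. It was -0.43 with the stroma score and -0.53 with the number of low-count genes as a covariate. COL23A1, a transmembrane collagen, was near 1 FPKM, at 0.743 to 1.02 in control and 1.03 to 1.91 in blue_light.

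Collagens at the floor of detection gave no basis for a fold. COL26A1 and COL15A1 had an unadjusted p below 0.05 for GL minus control in edgeR (0.0366 and 0.0379), and both are listed at 0 in all 3 GL libraries. The controls were themselves low: COL26A1 was 0, 0 and 0.373 FPKM and COL15A1 was 0.122, 0.0613 and 0. COL10A1, the collagen of hypertrophic cartilage, was listed at 0 in 7 of 12 libraries and reached 1.02 FPKM in RL replicate 2. Of the 42 genes, 11 were listed at 0 in at least 1 library.

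Among the comparisons between light groups, blue_light against GL gave the most collagen genes at a low unadjusted p. Of 40 collagen genes, 7 were higher in blue_light without overlap, where 14.6% of all tested genes were, and 10 were lower, where 12.3% were. With edgeR 0 of 40 were called (0.0495% of all genes), and 9 of 40 had an unadjusted p below 0.05, where 14.9% of all genes did; DESeq2 also called 0. In that direction COL5A1 was at -1.01 log2, COL1A2 at -0.90, COL9A3 at -0.97, COL6A1 at -0.60, COL17A1 at -0.51 and COL16A1 at -0.42, whereas COL7A1 was at 1.12 and COL24A1 at 0.58. The ninth was COL26A1, listed at 0 throughout GL. The smallest adjusted p among them was 0.272. The count of 9 fell to 2 without blue_light replicate 1. On leaving out GL replicate 1, 2 or 3 it was 2, 4 or 1. Without the 3 libraries with raised photoreceptor transcripts it was 0. The stroma share did not overlap between these groups, at 50.8% to 59.3% in blue_light and 41.0% to 42.7% in GL. With the stroma score as a covariate the count was 4, and over all genes it was 845 in place of 2702. Over all alternatives the change of COL5A1 ran from -1.46 to -0.29 and that of COL1A2 from -1.39 to -0.28. The count of 9 rose to 13 with DESeq2. The count was 11 without RL replicate 1, without RL replicate 2 or with the number of low-count genes as a covariate. For blue_light minus RL 0 of 40 were called (0.0110%) and 0 of 40 were below an unadjusted p of 0.05 against 5.14% of all genes; DESeq2 called 0. COL17A1 was lower in blue_light without overlap, against 3.13% of all genes, and 0 of 40 were higher, against 5.87%. For GL minus RL 0 of 40 were called (0.0715%), 5 of 40 were below an unadjusted p of 0.05 against 8.60%, and COL9A3 was higher without overlap, against 6.88% of all genes, with 0 of 40 lower against 6.33%. Its log2 change was 1.03 ± 0.44 (SE). The other 4 were COL10A1, COL6A6, COL26A1 and COL15A1, all listed at 0 in every GL library, and DESeq2 called 0.

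By class, the fibrillar sum varied most. It ranged from 1948 FPKM in blue_light replicate 1 to 9636 in RL replicate 2, a 4.95-fold range, and its share of all collagen FPKM from 38.9% to 70.3%. The basement membrane sum ranged 2.30-fold, from 475 to 1091 FPKM, the FACIT sum 1.81-fold, from 475 to 859, and the sum of the others 1.88-fold, from 1487 to 2791. The fibrillar sum was 5226 ± 965 (SD, n = 3) in control, 4432 ± 2585 (SD, n = 3) in blue_light, 8370 ± 516 (SD, n = 3) in GL and 6292 ± 2939 (SD, n = 3) in RL. All GL libraries lay above all controls, at 7781 to 8743 against 4112 to 5805, and within the span of RL. Most of the fibrillar sum was type I collagen. COL1A2 and COL1A1 averaged 2791 and 1576 FPKM in control and 4301 and 3040 FPKM in GL. The other fibrillar genes varied from 1.44-fold (COL5A2) to 8.44-fold (COL2A1, with a mean of 1.35 FPKM). The basement membrane share was 21.8% in blue_light replicate 1, where fibrillar transcripts were lowest, and at most 10.5% in the other 11 libraries.

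**Figure D4:**
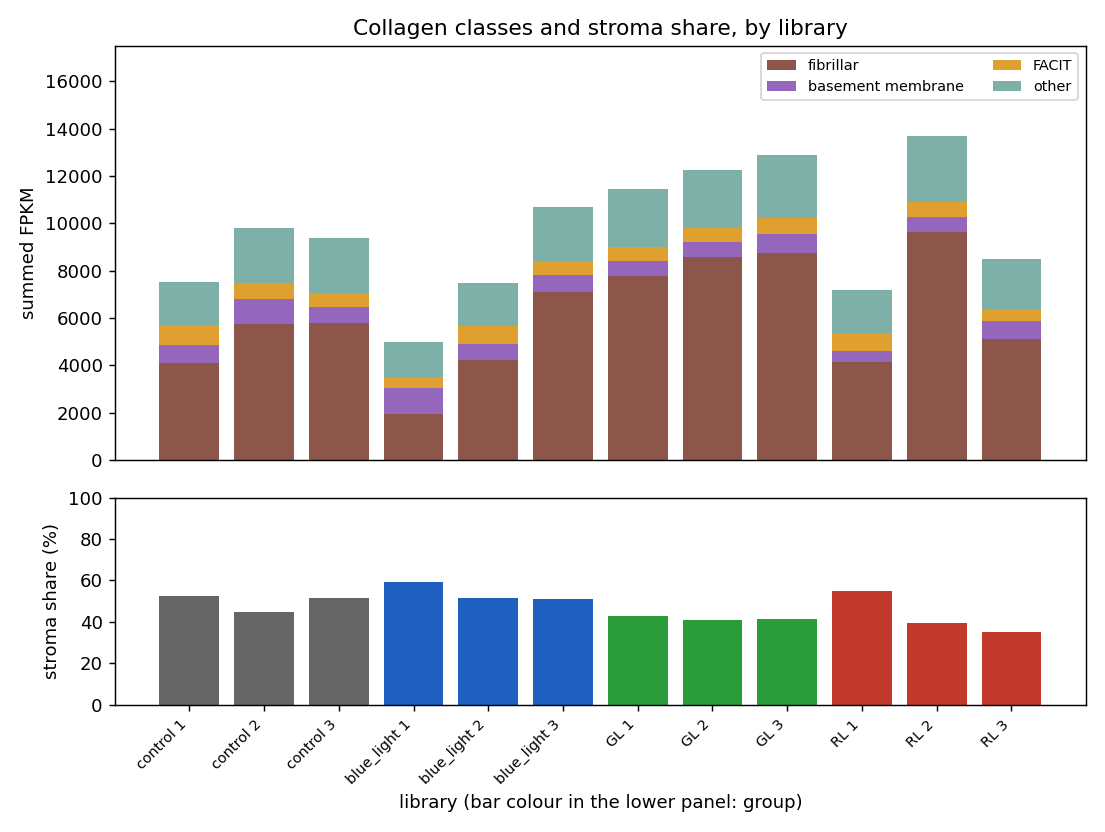
Upper panel, summed FPKM of the fibrillar, basement membrane, FACIT and other collagens in each of the 12 libraries; lower panel, the stroma share of the same library in percent. The fibrillar sum runs from 1948 in blue_light replicate 1, which has the highest stroma share (59.3%), to 9636 in RL replicate 2, which has a stroma share of 39.2%; RL replicate 3 has the lowest stroma share (35.2%) and a sum of 5119.

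Collagen levels were then set against the stroma share of each library. The fibrillar sum was lowest in the library with the highest stroma share, and the 3 GL libraries combined fibrillar sums of at least 7781 FPKM with stroma shares of at most 42.7%. RL replicate 3, with the lowest stroma share (35.2%), had a fibrillar sum of 5119 FPKM, below the median of 5784. On the broader keratocyte list (11 tested genes, mean log2 CPM) blue_light replicate 1 was the lowest of the 12 libraries, at 10.14. RL replicate 2 was the highest, at 10.90. The summed FPKM of that list gave another order, with 22662 in blue_light replicate 1 and 19390 in RL replicate 2. It ran from 16045 in RL replicate 3 to 23552 in control replicate 1. A slope on the stroma score (the mean log2 CPM of the 5 stroma genes minus that of the 5 epithelial genes) was fitted within groups with edgeR. It called 0 of 40 collagen genes, as it called 0% of all genes, and 12 of 40 had an unadjusted p below 0.05, where 20.5% of all genes did. Among these, 10 had negative slopes and 2 positive ones. The negative slopes, in log2 per unit of the score, were -2.56 for COL2A1, -1.90 for COL1A1, -1.42 for COL4A2, -1.25 for COL4A1, -1.21 for COL6A2, -1.12 for COL5A1, -1.11 for COL8A2, -1.10 for COL1A2, -0.80 for COL3A1 and -0.75 for COL8A1. The positive slopes were 1.66 ± 0.36 (SE) for COL7A1, with an adjusted p of 0.0630 in edgeR, and 0.97 for COL5A3.

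The slopes depended on the method and on the RL libraries. DESeq2 called 7 collagen genes (COL1A1, COL2A1, COL4A1, COL4A2, COL5A1, COL7A1 and COL8A2). Without RL replicate 3 edgeR also called 7 (COL1A1, COL2A1, COL5A1, COL5A3, COL7A1, COL8A2 and COL25A1), as part of 1126 genes. Without RL replicate 1, 5 collagen genes had an unadjusted p below 0.05 in place of 12, and without RL replicate 2, 7 did. With the number of low-count genes as a covariate 1 of 40 had an unadjusted p below 0.05, the slope of COL7A1 was 0.84 and that of COL4A1 turned to 0.0024. The libraries with many low-count genes had stroma shares of 50.8% to 59.3%, and the other 7 had 35.2% to 51.4%.

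Within groups, the collagen genes deviated in blocks. In blue_light replicate 1 the chains COL1A1, COL6A2, COL1A2, COL5A1, COL6A1 and COL6A3 lay 0.55 to 1.51 log2 below the group mean, COL1A1 at -1.51, while COL4A5 lay 0.51 above it. In blue_light replicate 3 and RL replicate 2 the same 6 chains were above their group means, COL1A1 by 1.36 and 1.01. In RL replicate 1 COL4A2 was at -0.99, COL4A1 at -0.88 and COL8A2 at -0.74, and COL7A1 at 1.19. The median within-group SD was 0.41 log2 over the 29 collagen genes and 0.34 over the 13244 tested genes of at least 1 FPKM.

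**Figure D5:**
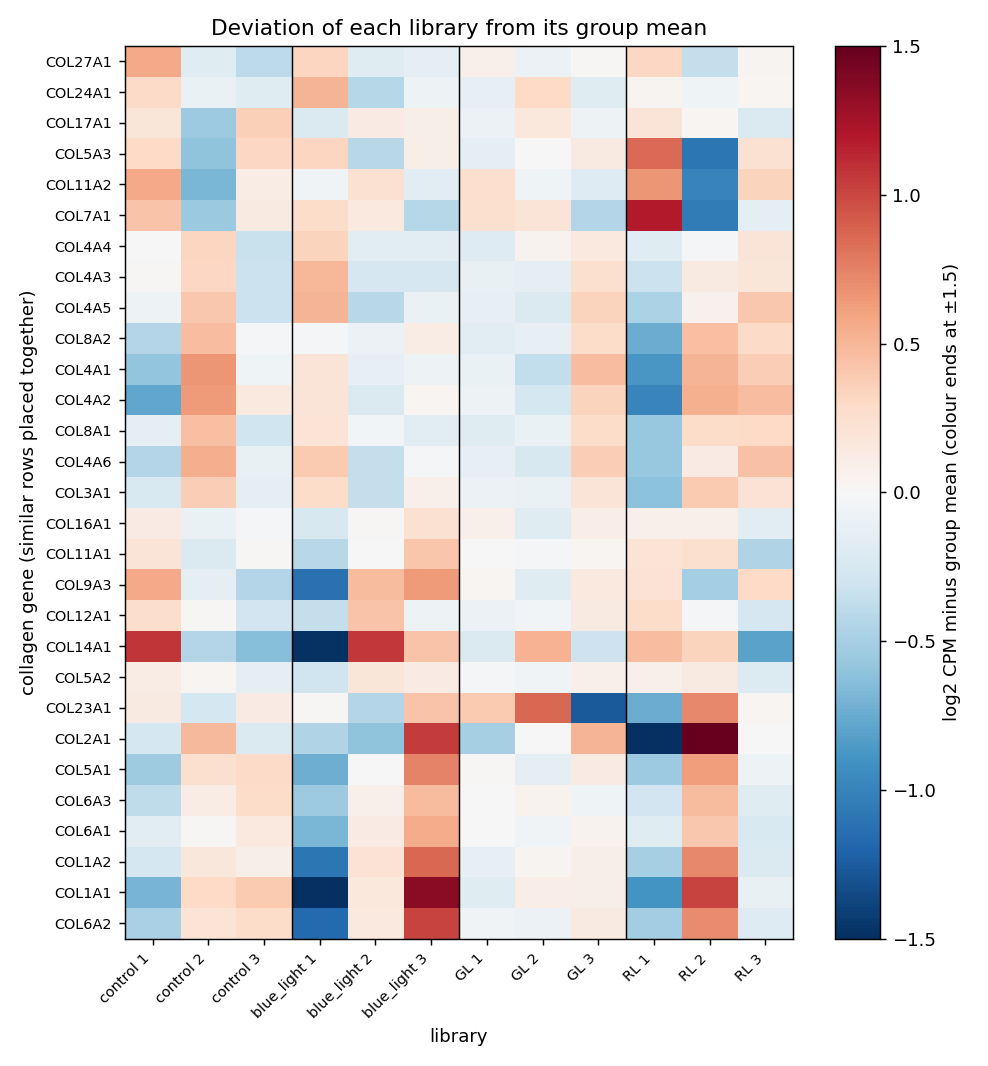
Deviation of each library's log2 CPM from the mean of its group for 29 collagen genes, with similar rows placed together; red is above and blue below the group mean, and black lines separate the groups. Chains of types I and VI with COL5A1 share 1 pattern (COL1A1 at -1.51 in blue_light replicate 1 and 1.01 in RL replicate 2), and those of types IV and VIII with COL3A1 share another (COL4A2 at -0.99 in RL replicate 1).

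The genes that make, process and bind collagens gave 0 calls by edgeR in any light group against control. Of the enzymes and chaperones of collagen synthesis and secretion, 19 of 24 listed genes were tested, and for GL minus control 4 of them had an unadjusted p below 0.05, 2 higher and 2 lower, where 8.10% of all genes did. In the lists of processing genes, receptors and basement membrane partners the corresponding counts were 1 of 17, 2 of 8 and 1 of 15. For blue_light 1 gene of the 4 lists, TGM2, and for RL 1 gene, LAMB1, was below that p. DESeq2 called P4HA3 for GL minus control (adjusted p of 0.00383) and 0 others of these lists. The genes named next were picked for having among the smallest p of their lists. PLOD1, a lysyl hydroxylase, was 120.3 to 156 FPKM in GL and 68.5 to 101 in control, with a log2 change of 0.75 ± 0.33 (SE). Of all tested genes, 9.21% lay higher in GL than in control without overlap on CPM, and 9.25% lay lower. P4HA3, a prolyl hydroxylase chain, was listed at 0 in all GL libraries and at 0.225 to 0.684 in control. Of 17 tested processing and cross-linking genes, BMP1, the procollagen C-proteinase, was 11.4 to 14.9 FPKM in GL and 16.4 to 27.2 in control (log2 change -0.56 ± 0.22, SE). For blue_light minus control the transglutaminase TGM2 was 6.79 to 8.07 FPKM against 12.0 to 17.4, with a log2 change of -0.93 ± 0.32 (SE) and an edgeR adjusted p of 1. In that comparison 4.09% of all tested genes lay lower without overlap on CPM.

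The collagen receptors and basement membrane partners named here were likewise picked for having among the smallest p of their lists. On CPM, 9.21% of all tested genes lay higher in every GL library than in any control, and 9.25% lay lower. DDR1, a receptor kinase activated by collagen, was 74.6 to 83.9 FPKM in GL and 51.9 to 56.7 in control, higher in 3 of 3 libraries. Its log2 change was 0.59 ± 0.19 (SE), with an unadjusted p of 0.00902 and an adjusted p of 0.522 in edgeR, and ITGA10 was the other of the 2 receptors below an unadjusted p of 0.05. Among 15 tested basement membrane partners, AGRN, a heparan sulfate proteoglycan, was 6.56 to 10.4 FPKM in GL and 14.9 to 24.5 in control, with a log2 change of -1.09 ± 0.49 (SE) and an edgeR adjusted p of 0.610. In RL minus control LAMB1, a laminin chain, had a log2 change of 0.89 ± 0.37 (SE) and an edgeR adjusted p of 1. The median log2 change of the partners was -0.24 in blue_light, -0.17 in GL and -0.19 in RL, beside medians over all genes between -0.02 and 0.01.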

How the data were processed

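RNA of 12 rabbit cornea libraries was analysed, grouped by the titles. The authors deposited 1 table with an estimated count per gene and library and an FPKM value, per the file headers; a count of 0 is listed there as 0.0001 FPKM and was set to 0. For the aligner, the counter, the strand setting and the rabbit build, nothing is given in the sources used here. The submitters' processing notes name a mouse build, but the genes lie on rabbit sequences, and 41 of 42 collagen identifiers matched rabbit RefSeq with the same symbol. Coordinates are those of the table. Low counts lie in steps of about 3.79, taken as 1 fragment. No 2 libraries shared more than 0.313% of equal counts.

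Counts were tested with edgeR 4.0.16 in R 4.3.3 (TMM, filterByExpr, glmQLFTest over all 12 libraries, Benjamini-Hochberg over 18171 genes). The biological coefficient of variation was 0.578. On simulated counts for GL minus control over 18171 genes, 16% of 2-fold and 74% of 8-fold increases were called. Of the simulated decreases, 54% of 4-fold and 60% of 16-fold ones were called. The changed genes were drawn at random from all tested genes. Alternatives were DESeq2 1.42.0, limma 3.58.1 on log2(FPKM + 1) or + 0.1, other scaling, no filter, covariates, and leaving out libraries.

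Members, gene lists and tests were chosen with earlier results of these data known. Named collagen genes were those past a threshold, those with an unadjusted p below 0.05 against control, in the test of any difference or in the slope, the 4 most abundant of each class, and the chains of types I, III, IV, V, VI, VIII, XII and XVII. Up to 3 genes of each partner list with the smallest p were eligible. Genes named for groups that do not overlap, or for blue_light minus GL, were in part chosen after their values were seen. Intervals of counting error were not computed, although 13 of the 42 genes averaged less than 1 FPKM and 11 were listed at 0 somewhere. The 3 libraries per group also limit the precision.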

Additional observations from a re-analysis of the deposited data

How the results depend on the processing

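Collagen genes called stayed at 0 in edgeR and limma under the alternatives run for each of the 8 tests, apart from the slope without RL replicate 3 (range 0 to 7 on leaving out 1 library). Fits of the compared groups only were not made for any difference or the slope, nor the stroma covariate for the slope. DESeq2 called 1 for GL minus control and 7 for the slope. On leaving out 1 library, collagen genes at an unadjusted p below 0.05 numbered 1 to 4 for blue_light and 0 to 6 for RL minus control (highest without control replicate 1), 0 to 6 for blue_light minus RL and 1 to 8 for any difference (highest without blue_light replicate 3), and 1 to 6 for GL minus RL (1 without GL replicate 1 or 3). Of the named collagen genes' values under alternatives, 776 kept direction and side of the threshold, 14 passed it newly and 14 turned. Those were, for blue_light minus control, COL1A1 and COL1A2 with the stroma score (0.19 and 0.055) or low-count genes (0.41 and 0.11) as a covariate, without the 3 libraries with retinal transcripts (0.30 and 0.23) and without blue_light replicate 1 (0.17 and 0.14; lowest on leaving out 1 library, -1.16 and -0.72, without blue_light replicate 3). For RL minus control they were COL1A1 and COL1A2 with the stroma score (-0.32 and -0.12) and without RL replicate 2 (-0.19 and -0.12; highest 0.81 and 0.55, without RL replicate 1). With low-count genes as a covariate COL7A1 in blue_light minus GL was -0.044 and the slope of COL4A1 was 0.0024. The cause was not tested.

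Counts over all genes were 3, 10, 2, 9, 2, 13, 11 and 0 for blue_light, GL and RL minus control, blue_light minus GL, blue_light minus RL, GL minus RL, any difference and the slope. DESeq2 gave 36, 183, 85, 435, 87, 225, 308 and 1848. Without a filter blue_light minus RL gave 5, any difference 22 and the slope 7. With limma on log2(FPKM + 1), RL minus control gave 1, blue_light minus RL 6, GL minus RL 20 and any difference 22; with + 0.1, blue_light minus control gave 5, blue_light minus GL 15, blue_light minus RL 9, any difference 22 and the slope 2. Counts divided by the step gave 4 for blue_light minus RL. Fits of the compared groups only gave 7, 28 and 5 against control and 3 for GL minus RL. The stroma score as a covariate gave 2 for blue_light minus GL and 1 for blue_light minus RL, and low-count genes gave 0 for blue_light minus GL. Without the 3 libraries with retinal transcripts, blue_light minus control, GL minus control and blue_light minus RL gave 1 each, GL minus RL 2, and blue_light minus GL and any difference 0. Leaving out 1 library gave 2 to 10 for blue_light, 3 to 21 for GL and 2 to 9 for RL minus control, 3 to 22 for blue_light minus GL, 2 to 5 for blue_light minus RL, 5 to 25 for GL minus RL, 5 to 25 for any difference and 0 to 1126 for the slope; the highest counts came without control replicate 1 (for GL minus control also without GL replicate 2) or, for blue_light minus GL, without GL replicate 2, for blue_light minus RL and GL minus RL without RL replicate 2, and for the slope without RL replicate 3. On sums of CPM the FACIT share was 13.1% in place of 7.27% and that of other collagens 18.8% in place of 23.3%, since such sums are not divided by gene length.

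Whether replicate numbers pair the samples was not settled. Libraries of the same number correlated at -0.074 to 0.235 (3 of 18 pairs above 0.1), and 5 of 12 correlated best with their own number. The 0.235 was that of control replicate 1 with RL replicate 1. The replicate block gave 2, 11 and 3 genes against control, and 0 collagen genes called in each test. For the slope it left 2 of 40 collagen genes at an unadjusted p below 0.05 in place of 12. Over all tested genes it left 1025 in place of 3716. With 3 libraries a group, 16% of simulated 2-fold increases in GL were called, for genes drawn at random from all tested genes. Collagen differences of that size could have gone uncalled, but the rate for collagen genes was not simulated.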

Other observations

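The table also held 32 entries annotated as collagen chains under a locus number in place of a collagen symbol, of which 7 averaged at least 1 FPKM. The most abundant, LOC100340124, is annotated as a partial type V alpha 1 chain and ranged from 88.2 to 208 FPKM. Its ratio to COL5A1 was between 0.441 and 0.757, and how reads were divided between both entries was not tested. Type XVIII collagen, a basement membrane collagen that carries endostatin, had no entry under its own symbol, but 2 entries carried its annotation. LOC103346860 ranged from 10.6 to 29.5 FPKM and LOC103347362 from 3.81 to 21.3. Of the other 4, 3 are annotated as type I alpha 1 chains and 1 as a type I alpha 2 chain, and the highest value among them was 6.14 FPKM, in LOC103347049.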
